A study of Mus musculus with 4 samples.

Results

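Alveolar type 2 epithelial cells (AEC2) of Tlr4-/- mice were compared with those of wild-type mice 4 days after bleomycin, an agent used to injure the lung. The comparison is the log2 signal of the Tlr4-/- day 4 array minus that of the wild-type day 4 array, 2 of the 4 arrays of the series. It is described across 18194 genes, of which 9097 were brighter, on average over the 4 arrays, than the median gene (a log2 signal of 7.05). The other 2 arrays held AEC2 from untreated wild-type and untreated Tlr4-/- mice. In every group AEC2 were sorted by flow cytometry and pooled from 4 to 5 mouse lungs, so each group had 1 array and no spread between replicates could be measured. The allele, strain, sex and age of the mice, the bleomycin dose and any vehicle are not given in the sources used here. By its title, the series is about hyaluronan and TLR4 in the renewal of alveolar stem cells and in lung fibrosis.

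TLR4 is an innate immune receptor. It reads bacterial lipopolysaccharide with its partner MD-2 (gene Ly96) and the co-receptor CD14, and fragments of the matrix sugar hyaluronan have also been described as ligands. Through the adaptor MyD88 and IRAK kinases it activates NF-kB, a transcription factor that switches on chemokine and cytokine genes together with its own inhibitors, such as IkB-alpha (Nfkbia) and A20 (Tnfaip3). AEC2 make surfactant, and after injury they divide and give rise to the flat type 1 cells (AEC1) through a transitional state marked by keratins and p53 target genes.

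At day 4 the Tlr4-/- pool held less signal of the neutrophil chemokines Cxcl1 and Cxcl2 than the wild-type pool. Of 11 NF-kB feedback genes 3 were at least 1.5-fold lower, Nfkbia, Tnfaip3 and Nfkbiz, against 0.616% of the 9097 genes. Nfkbiz was also lower untreated (-0.40). As a list the feedback genes were level, with 5 of 11 above 0 and a median of -0.02. Genes of mitochondrial respiration, of transitional epithelium and of the p53 response leaned to higher signal in Tlr4-/-, by small amounts. Surfactant protein genes differed by little, at signals near the top of the array's range. No day 4 difference has a replicate check, so sizes and counts are given for it and no p-value.

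The promoters of 4 of the lower inflammatory genes are shown because each holds the NF-kB consensus, on either strand, within the 250 bases before its start. They are RefSeq sequences of GRCm38.p6, read 5′ to 3′ along the gene, and capitals mark every match. Cxcl1 is chr5:90890995-90891244 (plus strand), Cxcl2 is chr5:90903649-90903898 (plus), Nfkbia is chr12:55492648-55492897 (minus) and the shown Tnfaip3 start is chr10:19015411-19015660 (minus).
Cxcl1: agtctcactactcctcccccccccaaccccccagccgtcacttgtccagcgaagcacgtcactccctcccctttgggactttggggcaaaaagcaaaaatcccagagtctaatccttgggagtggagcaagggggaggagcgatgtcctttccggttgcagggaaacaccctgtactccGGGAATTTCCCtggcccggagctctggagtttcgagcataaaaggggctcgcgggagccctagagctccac
Cxcl2: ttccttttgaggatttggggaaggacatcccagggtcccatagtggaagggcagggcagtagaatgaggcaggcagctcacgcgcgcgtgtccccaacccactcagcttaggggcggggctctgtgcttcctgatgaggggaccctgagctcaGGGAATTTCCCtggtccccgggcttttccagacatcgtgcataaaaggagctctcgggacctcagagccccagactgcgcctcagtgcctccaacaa
Nfkbia: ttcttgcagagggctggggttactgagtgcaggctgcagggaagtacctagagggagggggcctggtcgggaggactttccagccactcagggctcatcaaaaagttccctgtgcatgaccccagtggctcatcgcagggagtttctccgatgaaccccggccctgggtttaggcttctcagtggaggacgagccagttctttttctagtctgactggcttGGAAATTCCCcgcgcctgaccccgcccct
Tnfaip3: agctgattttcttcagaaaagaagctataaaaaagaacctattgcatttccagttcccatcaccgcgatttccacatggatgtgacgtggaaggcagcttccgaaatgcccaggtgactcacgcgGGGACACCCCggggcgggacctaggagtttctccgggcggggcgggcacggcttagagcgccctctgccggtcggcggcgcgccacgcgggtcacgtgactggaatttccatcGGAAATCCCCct
In Cxcl1 and Cxcl2 the capitals are the same run, in which matches on either strand overlap, and it begins 71 and 97 bases before the start. The Nfkbia match begins 29 bases before the start, and those of Tnfaip3 begin 125 and 12 bases before it. The other Tnfaip3 window of the table had 0 matches, and Nfkbiz had no window to search. Over windows that also took in the 50 bases after the start, 4.51% of 32841 RefSeq promoters held the consensus. Of the genes at least 1.5-fold lower at day 4, 7 of 48 with a window held it (14.6%): Cxcl1, Cxcl2, Nfkbia, Tnfaip3, Ccrl2, Reg3g and Igfbp5. The share was 4.59% of 109 genes at least 1.5-fold higher (Fcgr4, Irf2, AW112010, Car4 and Serpinh1) and 6.20% of 7382 genes past the filter. These shares describe letters in a window, not bound sites.

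Tlr4 itself was read by 4 probe sets. Below, 4 values in a row are first the untreated arrays, wild type then Tlr4-/-, and next the day 4 arrays, wild type then Tlr4-/-. Probe set 1418163_at read 8.87, 7.24, 9.07 and 6.39, which put both Tlr4-/- arrays below both wild-type arrays, with a day 4 difference of -2.68. Probe set 1418162_at read 9.71, 10.38, 9.88 and 10.29, and 1442827_at read 7.65, 8.09, 7.90 and 8.39. In both of these the Tlr4-/- arrays were the higher ones. Probe set 1430695_at was dim on all 4 arrays, at most 4.05. The average of the 4 was -0.47 at day 4, and the brightest probe set alone gave 0.41. Where each lies relative to the deleted part is not given in the sources used here, and a probe set outside that part checks nothing.

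**Figure D1:**
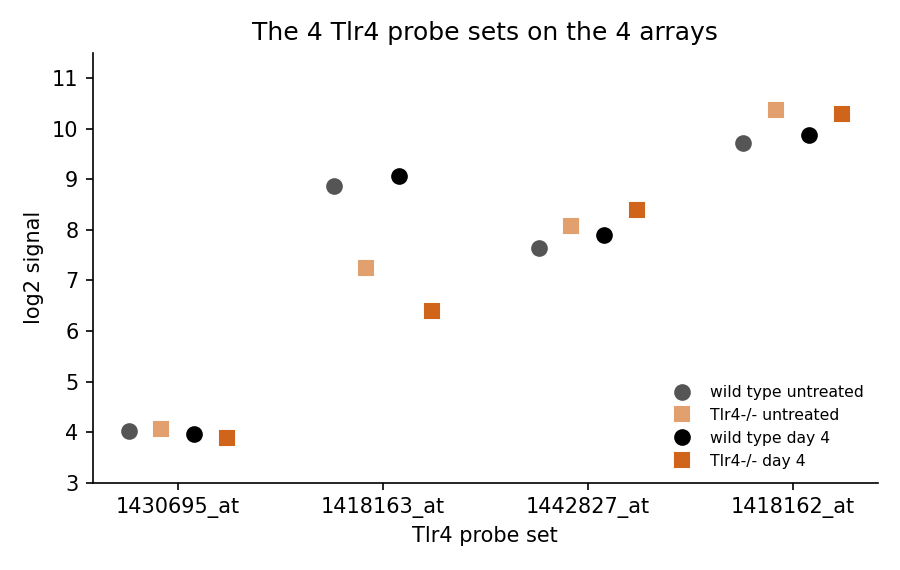
Log2 signal (vertical axis) of the 4 Tlr4 probe sets (horizontal axis) on the 4 arrays, 1 point per array with no error bar. Both Tlr4-/- points lie below both wild-type points for 1418163_at and above them for 1418162_at and 1442827_at.

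The arrays were close to each other across genes. The 2 day 4 arrays had medians of 6.96 (wild type) and 6.95 (Tlr4-/-) over 45101 probe sets, and the day 4 difference had an SD of 0.23 across genes, against 0.32 for the untreated difference. At day 4, 95.9% of the 9097 genes differed by less than 0.5. The spread between arrays, estimated by limma from how far the genotype difference varied between treatments and not from replicates, was 0.23 (SD of a difference between 2 arrays). In Tlr4-/-, 137 genes were at least 1.5-fold higher (1.51% of the 9097, a log2 difference of 0.585 or more) and 56 at least 1.5-fold lower (0.616%). At 2-fold the counts were 4 higher (0.044%) and 5 lower (0.055%). Lower genes lay more often among bright genes than higher ones did. Of 5 equal bins of mean signal, the brightest held 13 higher and 17 lower genes at 1.5-fold, and the dimmest 39 higher and 7 lower.

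**Figure D2:**
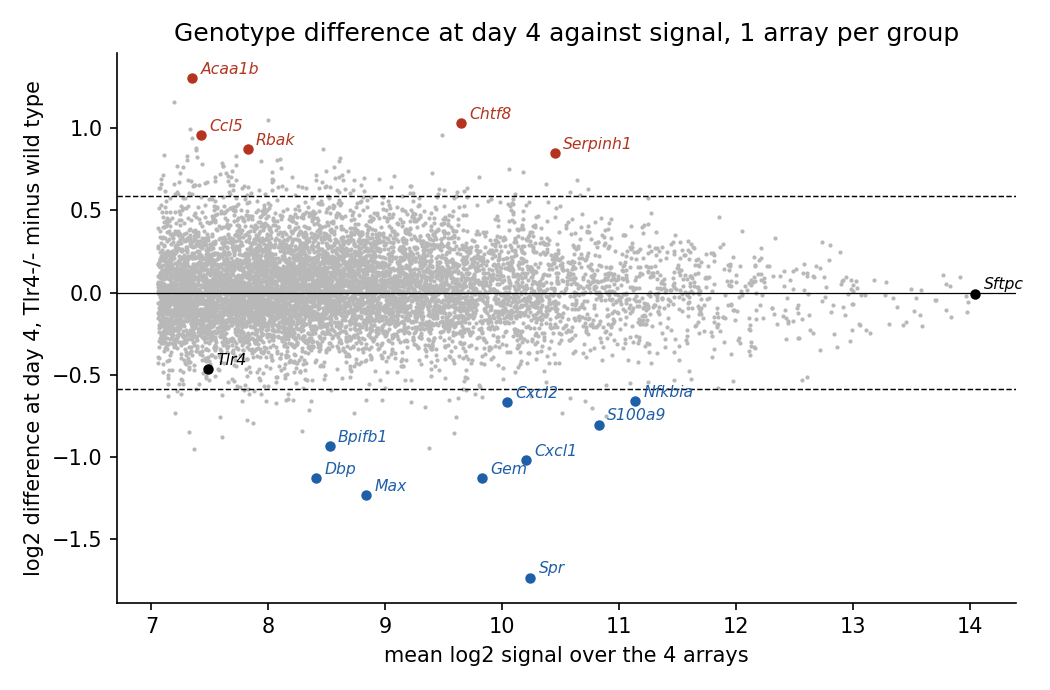
Day 4 log2 difference, Tlr4-/- minus wild type (vertical axis), against the mean log2 signal over the 4 arrays (horizontal axis) for 9097 genes. Dashed lines mark 1.5-fold; Spr (-1.73) is the lowest gene and Acaa1b (1.30) the highest.

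Many of the genes furthest from 0 rested on 1 probe set. That was so for 144 of the 193 genes past 1.5-fold (74.6%), against 42.6% of all genes past the filter. It was also so for 12 of the 15 lowest and 14 of the 15 highest named genes. Among genes past 1.5-fold with several probe sets above the floor, 42 of 42 had all of them on the same side of 0, against 2140 of 4491 genes of any size. Averaging favours such genes for a place past 1.5-fold, so this is no independent check.

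The neutrophil-attracting chemokines Cxcl1 and Cxcl2 stood lower in the Tlr4-/- day 4 pool. Cxcl1, a ligand of the neutrophil receptor CXCR2, read 10.07, 10.05, 10.86 and 9.84. The wild-type day 4 array was the high one and the other 3 lay close together, with a day 4 difference of -1.02 (2.03-fold) and an untreated one of -0.01. Its 3 probe sets gave -1.06, -1.01 and -0.98. Cxcl2, its close relative, read 9.94, 9.79, 10.54 and 9.87, again with wild type at day 4 on top and the other 3 close together. Its difference was -0.67. The list held 7 chemokines, 4 of them past the filter. Of these 0 of 4 were above 0, 2 were at least 1.5-fold lower and the median was -0.39, against 4843 of 9097 genes above 0 and a median of 0.02 over all genes. With its dimmer members the list's median was -0.10, as Cxcl3, Cxcl5 and Ppbp had little signal. Cxcl15, a chemokine made by AEC2 themselves, differed by -0.10, and the platelet chemokine gene Pf4 by -0.03, both inside the spread between arrays.

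NF-kB feedback inhibitors split. Nfkbia, which holds NF-kB in the cytoplasm, read 11.18, 11.05, 11.48 and 10.82. The wild-type day 4 array was highest and the Tlr4-/- day 4 array lowest, a difference of -0.66, and its 5 probe sets ran from -0.81 to -0.45. Tnfaip3, the ubiquitin-editing enzyme A20, read 7.83, 8.01, 8.37 and 7.71 and differed by -0.66 (-0.78 by its 1 probe set above the floor, -0.54 by the dim other). As in Nfkbia, the 2 day 4 arrays were the highest and the lowest. Nfkbiz, an atypical IkB protein of the nucleus, read 10.09, 9.69, 9.95 and 9.33, lower in Tlr4-/- in both treatments, with -0.40 untreated and -0.62 at day 4. Its 3 probe sets ran from -0.86 to -0.20 at day 4. With log2 of the signal plus 64, Tnfaip3 (-0.51) and Nfkbiz (-0.57) fell short of 1.5-fold. Bcl3, a nuclear IkB protein that can act as a coactivator, read 8.48, 9.88, 9.03 and 9.46, and here the Tlr4-/- arrays were the higher ones. The list's 11 members past the filter had 5 above 0, 3 at least 1.5-fold lower, 0 higher and a median of -0.02, which became -0.23 in the upper part by signal. Zfp36, which destabilises cytokine mRNA, differed by -0.23, within the spread between arrays. None of the 7 NF-kB subunits and kinases past the filter reached 1.5-fold (0 higher, 0 lower, median -0.08), Rel at -0.37 being the lowest.

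**Figure D3:**
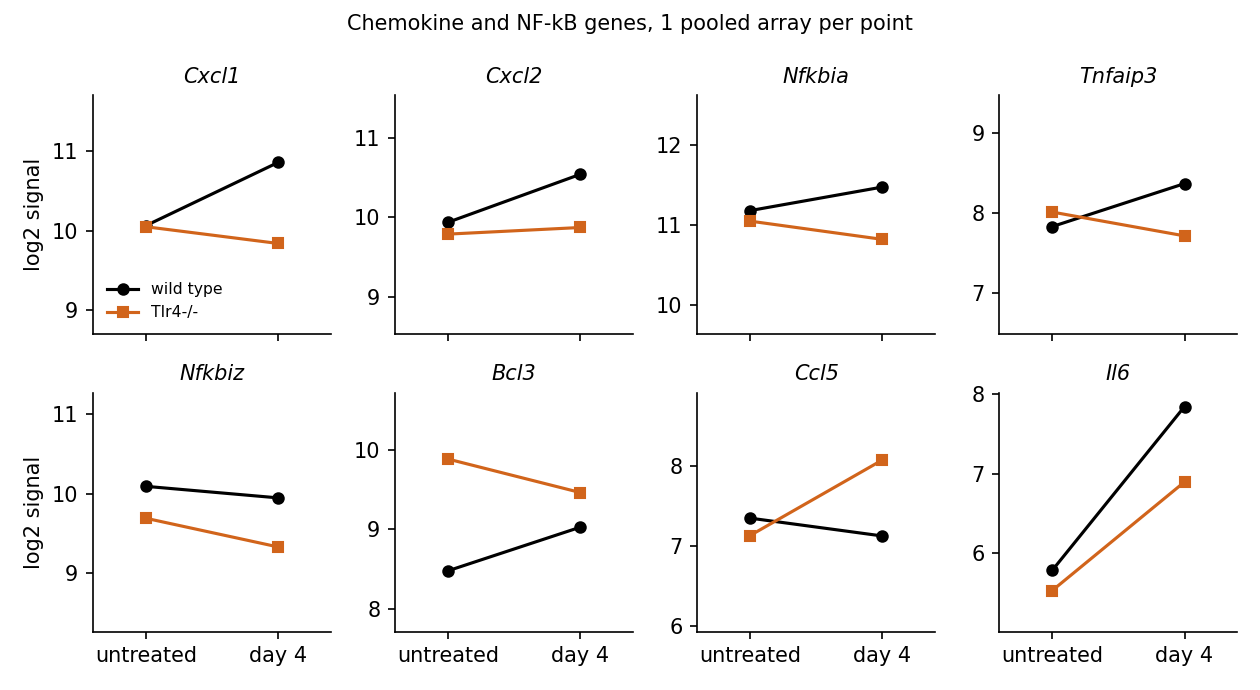
Log2 signal (vertical axes, each spanning the same number of log2 units) of 8 chemokine and NF-kB genes, untreated and at day 4, 1 pooled array per point; lines join arrays of a genotype and are no time course of the same mice. For Cxcl1, Cxcl2, Nfkbia and Tnfaip3 the wild-type day 4 point is the highest of the 4, and for Ccl5 the Tlr4-/- day 4 point is.

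The receptor's own pathway differed little. Of 16 Toll-like receptor genes past the filter, 8 were above 0, 0 reached 1.5-fold either way and the median was -0.02, a sign that 4 of the 8 alternative settings turned. Cd14 read 9.96, 9.57, 10.67 and 10.53, higher at day 4 in both genotypes, and the adaptor gene Myd88 read 8.88, 9.16, 9.47 and 9.18. Their day 4 differences were -0.14 and -0.29. The kinase gene Tbk1, which links Toll-like receptors to interferon, was at 0.48. Ly96, at or below 7.55, was too dim for the filter.

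Other cytokines and chemokines held 1 gene past 1.5-fold. Ccl5, which attracts T cells and monocytes, read 7.35, 7.13, 7.13 and 8.08, high on the Tlr4-/- day 4 array alone, with a difference of 0.95. Of 17 members past the filter 7 were above 0 and the median was -0.08. Among receptors of myeloid cells outside the lists, Ccrl2, which binds the chemoattractant chemerin, differed by -0.76, and the CD300 family genes Cd300lf and Cd300c2 by -0.84 and 0.88.

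Il6, the cytokine that signals through gp130 (Il6st) to STAT3, read 5.79, 5.53, 7.84 and 6.90. Bleomycin arrays were above untreated ones and wild type was on top, but the gene was below the floor on average, so the size of its difference of -0.95 is uncertain. Past the filter, 8 of 25 genes of the IL-6 and STAT3 axis were above 0, 0 were 1.5-fold higher and 1 was 1.5-fold lower, with a median of -0.07. That gene was Reg3g, an antibacterial lectin, which read 8.26, 7.95, 9.74 and 9.002. It was higher at day 4 than untreated in either genotype, and the day 4 difference was -0.73. The receptor gene Il6st and Stat3 differed by -0.20 and -0.08, and the STAT3 target Socs3 by -0.01. Cytokine genes differed with a median of -0.04 and STAT3 target genes likewise.

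Hyaluronan genes were nearly level. Has1, a synthase of this sugar, read 7.91, 7.96, 8.02 and 8.15, and the synthase genes Has2 and Has3 were dim, at most 5.16. The hyaluronan receptor gene Cd44 read 8.85, 9.001, 9.19 and 9.17 and differed by -0.02. Of 28 members on the array 11 passed the filter, 3 were above 0, 0 reached 1.5-fold and the median was -0.10. The lowest was Itih4, of the family whose heavy chains can be bound to hyaluronan, at -0.34. In both genotypes its day 4 array was below its untreated one, with values of 12.40, 12.62, 11.98 and 11.64. Habp4, a hyaluronan- and RNA-binding protein gene, was the highest at 0.27.

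AEC2 identity was present on all 4 arrays. The surfactant protein C gene Sftpc read 14.03, 14.02, 14.06 and 14.05, Sftpb 13.96, 13.99, 13.96 and 13.94 and the lysozyme gene Lyz2 13.99, 14.00, 13.99 and 13.93. These signals are near the top of the array's range, where it responds least, and their day 4 differences were -0.01, -0.02 and -0.06. The surfactant and lamellar body list had 2 of 12 members above 0, 0 past 1.5-fold either way and a median of -0.09. Abca3, the lipid transporter of the lamellar body, read 11.11, 10.60, 10.76 and 10.37, lower in Tlr4-/- in both treatments. AEC2 identity genes had 4 of 26 above 0, 0 past 1.5-fold and a median of -0.13. Of the 16 of them that are not transcription factors, 0 were above 0, with differences from -0.42 to -0.03.

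Etv5, a transcription factor downstream of FGF signalling that maintains AEC2, read 12.08, 12.14, 12.10 and 11.56. The Tlr4-/- day 4 array was the low one and the other 3 were level, a difference of -0.54, and all 3 probe sets were below 0 (-0.69 to -0.42). Nkx2-1, the lung lineage factor, differed by -0.17. Acoxl, a peroxisomal oxidase-like gene of AEC2, read 11.54, 11.71, 10.90 and 10.48, with both day 4 arrays below both untreated ones.

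Wnt and FGF signalling, which supports AEC2 as progenitors, had 10 of 32 genes above 0, 0 at least 1.5-fold higher, 1 at least 1.5-fold lower and a median of -0.12. The lower gene was Fzd7, a Wnt receptor, which read 9.03, 8.98, 8.37 and 7.77. The day 4 arrays were below the untreated ones, and they differed by -0.59. The 1 Fzd7 probe set above the floor gave -0.50, under 1.5-fold, and the gene was past 1.5-fold in 3 of 5 alternative settings. By role, the medians were -0.16 for Wnt ligands and receptors, -0.01 for Wnt pathway and target genes, -0.27 for FGF and EGF receptors and -0.25 for feedback genes of ERK signalling. Dusp6, a phosphatase that switches ERK off, went the other way at 0.55. In the list of lipid supply to surfactant, 7 of 24 fatty acid and phospholipid genes were above 0, 0 passed 1.5-fold and the median was -0.14. Srebf1, the transcription factor of fatty acid synthesis, read 10.45, 10.82, 10.48 and 10.05, with Tlr4-/- at day 4 the lowest, at -0.43, and the desaturase gene Fads1 was at -0.34. Sterol synthesis genes had 11 of 20 above 0 and 0 past 1.5-fold as averages over probe sets, from -0.36 for Fdps to 0.31 for Mvd. The 1 Fdps probe set above the floor gave -0.75, past 1.5-fold, and the dim other gave 0.03.

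Genes of the transitional epithelial state leaned to Tlr4-/-. Of 22 past the filter 19 were above 0, 1 was at least 1.5-fold higher, 0 were lower and the median was 0.27. That gene was Tnfrsf12a, the receptor of the cytokine TWEAK, which read 10.34, 10.25, 10.65 and 11.33. The Tlr4-/- day 4 array was the high one, at a difference of 0.68. Sfn, the p53-inducible protein 14-3-3 sigma, read 8.50, 8.87, 8.99 and 9.57 and differed by 0.58, just under 1.5-fold. Krt8, a keratin that marks this state, was level between the genotypes, at 0.05. The untreated median of the list was 0.24, between other arrays, against an untreated median of 0.08 over all 9097 genes.

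Among p53 targets 16 of 21 were above 0, against 53.2% of all genes, and 0 were at least 1.5-fold lower. At least 1.5-fold higher were 4 of the 21, against 1.51% of all genes. The median was 0.25 (0.15 with the brightest probe set per gene). Untreated it was 0.52, against 0.08 over all 9097 genes. Perp, a p53 effector found in cell junctions, read 9.89, 10.42, 10.99 and 11.62, with both day 4 arrays above both untreated ones and a difference of 0.63. The stress gene Ddit4l read 5.70, 6.74, 7.93 and 8.53 and ordered the arrays in the same way. Its difference of 0.60 stayed past 1.5-fold in 1 of 5 alternative settings. Eda2r, an X-linked receptor of the TNF family, read 7.75, 6.38, 7.06 and 7.79. Its genotype difference was -1.37 untreated and 0.73 at day 4. Ercc5, a nuclease of DNA repair, differed by 0.71, though its brighter probe set gave 0.34. Cdkn1a, the cell cycle inhibitor p21, read 10.43, 11.17, 12.36 and 12.35. Both day 4 arrays were well above both untreated ones, and they differed by -0.01, with probe sets at -0.37 and 0.35.

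AEC1 markers had 10 of 17 above 0, 0 past 1.5-fold either way and a median of 0.07. The sodium channel gene Scnn1g was at 0.58, the chloride channel family gene Clic5 at 0.51 with probe sets from 0.03 to 1.07, and Hopx at 0.44. The receptor gene Ager, a classical AEC1 marker, was at 0.09. Cell cycle genes were mostly dim. In G2/M 9 of 29 on the array passed the filter, 8 of 9 were above 0 and the median was 0.24. That median was 0.06 with no filter on dim genes, 0.09 in the upper part by signal and 0.16 with quantile normalization. In S phase 10 of 19 were above 0 with a median of 0.06. Prim1, a primase subunit of DNA replication, read 7.56, 7.17, 7.48 and 8.25, high on the Tlr4-/- day 4 array alone (0.77). The helicase subunit gene Mcm2 went the other way, at -0.55. Cdca8, of the chromosomal passenger complex, was at 0.64, and the proliferation marker Mki67 was at 0.09. Of 17 apoptosis genes 7 were above 0, and Bik, a death-promoting BCL2 relative, read 8.59, 8.52, 7.09 and 7.69, both day 4 arrays being below the untreated ones. Its difference was 0.60, the only 1 of the list past 1.5-fold.

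Mitochondrial genes showed many small differences on the same side. Of 57 nuclear genes of oxidative phosphorylation 52 were above 0 (91.2%, against 53.2% of all genes), 0 of the 57 reached 1.5-fold either way and the median was 0.18. Outside the list, the complex IV subunit gene Cox7a1 was at 0.68. The median was 0.21 for complex I, 0.18 for complex II, 0.26 for complex III, 0.16 for complex IV and 0.08 for ATP synthase. Ndufa1, an X-linked complex I subunit, read 11.81, 11.82, 11.66 and 12.12, with Tlr4-/- at day 4 the highest at 0.46, and Ndufs7 of the same complex differed by 0.42. Mitochondrial ribosomal protein genes had 53 of 62 above 0, 2 at least 1.5-fold higher and 0 lower, with a median of 0.19. Those were Mrpl43, which read 9.28, 9.41, 9.26 and 9.89, and Mrpl34, which read 8.83, 9.30, 9.06 and 9.66. Both had Tlr4-/- at day 4 on top. The constitutive proteasome had 23 of 28 above 0 and a median of 0.15, led by the catalytic subunit gene Psmb5 at 0.49. Cytosolic ribosomal proteins had 19 of 22 above 0 with a median of 0.08. The 22 ran from -0.27 for Rps20, which was at 0.04 by its brightest probe set, to 0.33 for Rps18, and Rps25, which the list did not hold, was at 0.83. Untreated medians of the 4 lists, from the other 2 arrays, were 0.10, 0.23, 0.22 and -0.01. Over all 9097 genes the untreated median was 0.08, with 62.2% of genes above 0, so the 0.10 of oxidative phosphorylation lay near it.

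**Figure D4:**
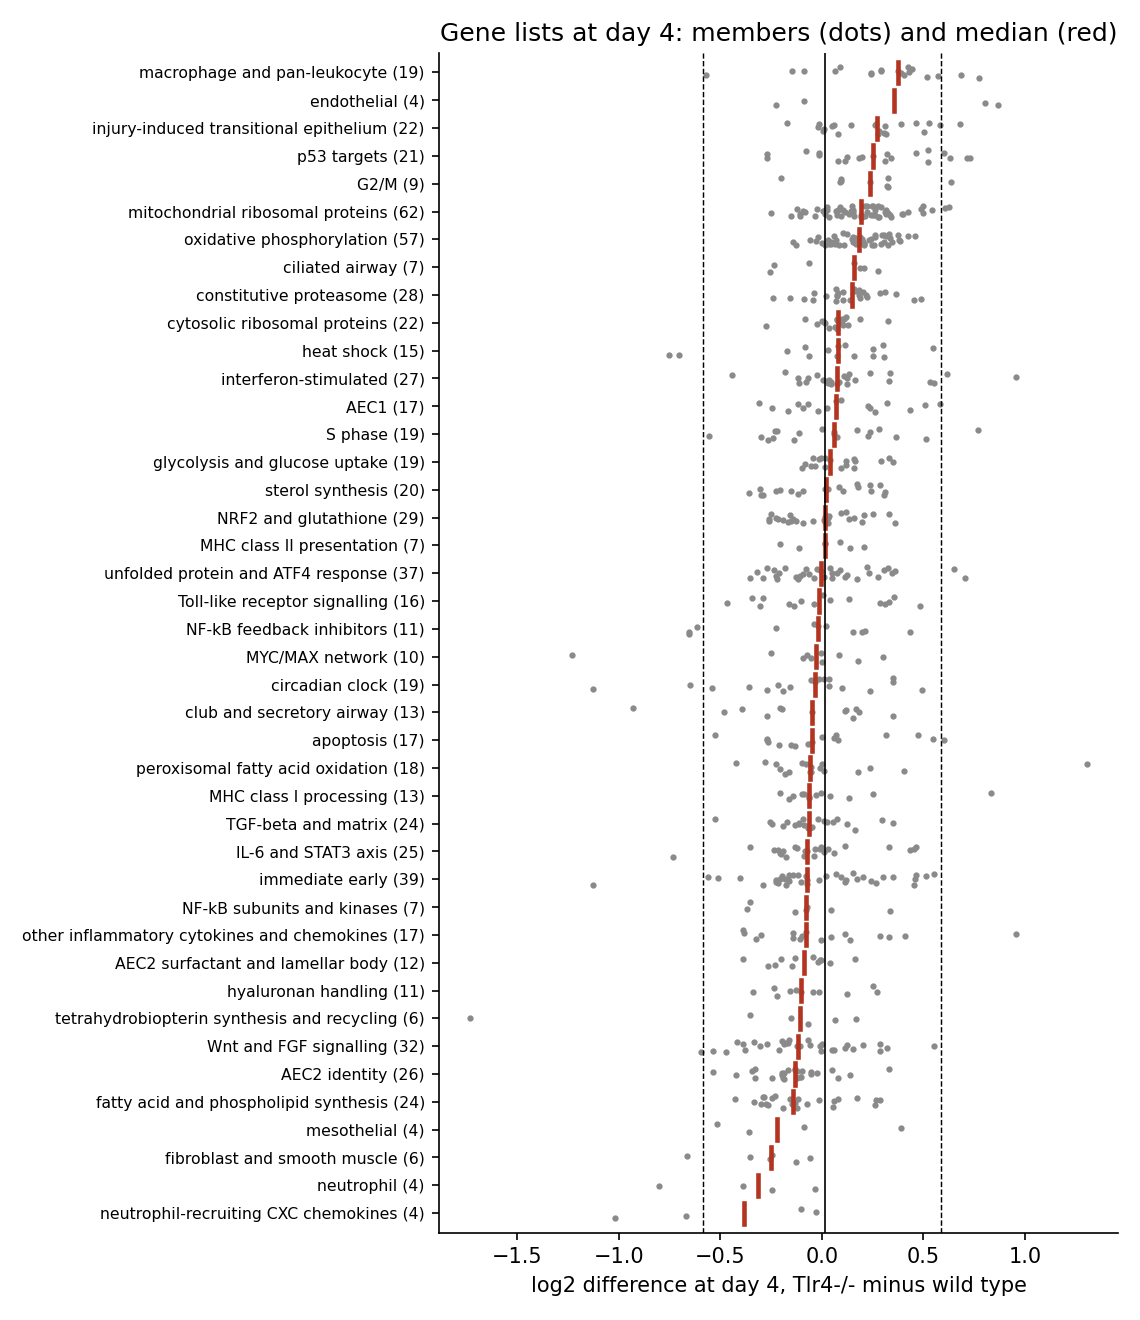
Day 4 log2 difference (horizontal axis) of the members past the filter (dots) of each list with at least 4 such members (vertical axis, number of members in brackets), with red bars at the list medians; the solid line is the median of all 9097 genes (0.02) and dashed lines mark 1.5-fold. Medians run from -0.39 for the CXC chemokines to 0.38 for macrophage and pan-leukocyte markers.

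Genes that respond within minutes to hours were examined as well, because tissue dissociation and time of day can move them. The hour at which lungs were taken and the time to sorting are not given in the sources used here. Of 39 immediate early genes 17 were above 0, 0 were 1.5-fold higher, 1 was lower and the median was -0.08. The lower gene was Gem, a small GTPase that restrains calcium channels, which read 10.59, 10.83, 9.50 and 8.38. Both day 4 arrays were below both untreated ones, and Tlr4-/- was lowest, at -1.13. Nr4a1, an immediate early nuclear receptor, was at -0.56. The inducible chaperone genes Hspa1a and Hspa1b, whose coding sequences are nearly identical so that their probe sets may share signal, differed by -0.70 and -0.75. Hspa1b read 9.33, 9.24, 10.30 and 9.54, with the wild-type day 4 array standing above the other 3. The other 13 heat shock genes did not reach 1.5-fold, and 10 of the 15 were above 0.

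The circadian output gene Dbp, a transcription factor with a strong daily rhythm, read 8.01, 8.08, 9.34 and 8.21. The wild-type day 4 array was high and the other 3 lay close together, a difference of -1.13 that its probe sets put at -1.19 and -1.07. Nr1d2, a clock repressor, read 9.79, 9.42, 9.82 and 9.17 and differed by -0.65. The remaining 17 clock genes past the filter stayed within 1.5-fold, with Per3 at -0.54 and Cry1 at 0.49, and the list had 8 of 19 above 0 and a median of -0.03. The E-box (CACGTG), the motif of the clock activators, was held by 7 of the 48 genes with a window that were at least 1.5-fold lower, 11 of the 109 higher ones and 886 of the 7382 past the filter.

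Interferon-stimulated genes had 20 of 27 above 0, 2 at least 1.5-fold higher, 0 lower and a median of 0.07. Beside Ccl5, the higher gene was Ifi35, which read 8.33, 8.57, 8.87 and 9.49, higher at day 4 in both genotypes and at 0.62 between them, with probe sets from 0.15 to 0.90. Nlrc5, the transactivator of MHC class I genes, read 6.60, 7.06, 7.36 and 8.19, highest in Tlr4-/- at day 4 (0.83). The other class I processing genes stayed within 1.5-fold, with 4 of 13 above 0 and a median of -0.06, and class II genes had 5 of 7 above 0 and a median of 0.01. In the unfolded protein and ATF4 response 2 of 37 genes were at least 1.5-fold higher, 0 were lower, 18 were above 0 and the median was -0.01. Atf5, a transcription factor of this response, read 7.87, 8.64, 8.60 and 9.30 and asparagine synthetase (Asns) 7.55, 7.88, 8.18 and 8.83. In both, Tlr4-/- at day 4 was highest, at 0.70 and 0.65. NRF2 and glutathione genes had 16 of 29 above 0, glycolysis genes 12 of 19, and 0 of either list passed 1.5-fold. TGF-beta and matrix genes had 8 of 24 above 0 and a median of -0.07, with Thbs1, an activator of latent TGF-beta, lowest at -0.53.

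The genes furthest from 0 belonged to no common list. Spr, sepiapterin reductase, which makes the cofactor tetrahydrobiopterin, read 10.70, 11.06, 10.46 and 8.73. The Tlr4-/- day 4 array stood far below the other 3, at -1.73 (3.32-fold), on 1 probe set. The other 5 genes of that pathway past the filter did not reach 1.5-fold, with Pcbd1, a recycling enzyme, at -0.36. Max, the partner that MYC needs to bind DNA, read 8.95, 8.95, 9.33 and 8.10, again low on the Tlr4-/- day 4 array and again on 1 probe set (-1.23). Myc itself read 7.41, 8.58, 8.84 and 9.14, lowest in the untreated wild-type array. In the MYC and MAX network 3 of 10 genes were above 0 and the median was -0.03.

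Acaa1b, a peroxisomal thiolase of fatty acid oxidation, was the highest gene and read 7.72, 6.36, 7.01 and 8.31. The Tlr4-/- arrays were both the lowest (untreated) and the highest (day 4), with genotype differences of -1.36 and 1.30. Its near-identical paralog Acaa1a differed by -0.18 at day 4, and 6 of 18 peroxisomal genes were above 0 with a median of -0.06. Chtf8, of the complex that loads the DNA replication clamp, read 9.25, 9.81, 9.25 and 10.28, the Tlr4-/- arrays being the higher ones in both treatments (1.03 at day 4). Serpinh1, the collagen chaperone HSP47, read 10.12, 10.69, 10.06 and 10.91 and had the same order, at 0.85 with both probe sets above 0. Slc15a1, an intestinal-type peptide transporter, was at 0.96 and Fetub, which encodes the secreted protein fetuin-B, at 0.94. The nuclear receptor gene Pparg, active in alveolar macrophages and lipid-handling cells, read 6.46, 6.88, 7.12 and 7.96 and was at 0.84. The remaining high genes by the naming rule were Krtap17-1, Rbak, Neurl4, Rps25 and Fbxo2, from 0.83 to 0.997. The remaining low ones were Zfp687, Adam7, Ppp6r1, Dnajc25, Trim72 and Scaf1, from -0.94 to -0.78. All 11 rested on 1 probe set.

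Markers of other cells moved beside these genes. In bulk RNA of sorted cells, fewer cells of a type and less RNA per cell cannot be told apart. Macrophage and pan-leukocyte markers past the filter had 16 of 19 above 0, 2 at least 1.5-fold higher, 0 lower and a median of 0.38, and their mean log2 signal was 7.69, 7.87, 9.06 and 9.34. On the day 4 arrays it stood well above the untreated ones, with Tlr4-/- on top. Clec4n, a C-type lectin of myeloid cells, read 5.87, 6.77, 8.52 and 9.29 (0.77), and the complement gene C1qb 6.74, 7.35, 9.43 and 10.12 (0.69). The pan-leukocyte gene Ptprc read 6.69, 7.41, 7.54 and 7.61, close between the day 4 arrays. Below 0 at day 4 were 3 members, down to -0.57, and the lowest untreated difference in the list was -1.13. Clec4d, another C-type lectin gene of the list, was lower in Tlr4-/- across both treatments (-0.85, limma on the 6065 brightest genes, adjusted p = 0.0252). Most of the macrophage and pan-leukocyte markers stood higher in Tlr4-/- at day 4 while Cxcl1, Cxcl2, Nfkbia and Tnfaip3 stood lower. The part of these markers' cells in the differences of Ccl5, Nlrc5, Pparg and the interferon genes was not tested.

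Neutrophil markers went the other way, with 0 of 4 past the filter above 0 and a median of -0.32. Their mean log2 signal was 10.56, 10.16, 11.07 and 10.70, but Lcn2 in this list is also made by injured epithelium. S100a9, a calgranulin of neutrophils, read 11.09, 10.48, 11.26 and 10.46, below wild type in both treatments and at -0.80 at day 4, and Ltf, lactoferrin, was at -0.39. The granule and receptor genes Elane, Mmp8, Cxcr2 and Csf3r were at most 6.44 on every array, under the floor. The part of neutrophil RNA in the lower Cxcl2, Reg3g and Ccrl2 values was not tested.

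Fibroblast and smooth muscle markers had 0 of 6 above 0, 1 at least 1.5-fold lower and a median of -0.25 (-0.45 in the upper part by signal). That was Igfbp5, which binds insulin-like growth factors and read 9.43, 8.02, 10.05 and 9.38, below wild type in both treatments (-0.66 at day 4). The collagen gene Col1a1 read 8.18, 7.62, 9.54 and 9.30 and was at -0.25. Endothelial markers had 4 of 15 past the filter, and 2 of them, Vwf (0.87) and Car4 (0.80), were at least 1.5-fold higher. Pecam1 and Cdh5, which define endothelium, were under the floor on average, and the list's median of 0.36 became -0.09 with the brightest probe set of each gene. Car4 read 7.48, 8.32, 8.90 and 9.70, higher in Tlr4-/- in both treatments. Mesothelial markers had 1 of 4 above 0 (Krt19, shared with the transitional list) and a median of -0.22. Club and secretory airway markers had 6 of 13 above 0, a median of -0.05 and 1 gene at least 1.5-fold lower, Bpifb1, a secreted airway defence protein, which read 8.97, 8.14, 8.96 and 8.03. It was lower in Tlr4-/- in both treatments, and its brighter probe set put the day 4 difference at -0.51. Medians were 0.16 for 7 ciliated genes, -0.18 for 2 basal genes, 0.06 for 2 lymphocyte genes and -0.09 for 3 erythroid and platelet genes past the filter.

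The sex of the pooled mice is unknown. Xist, the RNA of the inactive X chromosome, read 11.41, 11.30, 10.79 and 10.04, a day 4 difference of -0.75. The Y-linked gene Eif2s3y read 6.82, 6.86, 8.85 and 8.87 and Kdm5d 6.78, 6.55, 7.80 and 7.83. As averages over their probe sets both were close between the day 4 arrays. The 1 probe set above the floor differed by 0.39 for Eif2s3y and by 0.08 for Kdm5d. The dim Y-linked genes Uty and Usp9y differed by 0.31 and -0.21. Eif2s3y and Kdm5d were higher at day 4 than untreated, while Xist was lower there, so sex-linked signal differed between untreated and day 4 pools. Both day 4 arrays thus carried Xist and Y-linked signal, and whether their mix of sexes was the same is not known. The part of sex in the day 4 genotype differences, those of the X-linked genes Eda2r and Ndufa1 among them, was not tested. Nor was its part in contrasts of untreated with day 4 values.

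The untreated genotype difference, which shares no array with the day 4 one, showed where values recur. Untreated, 504 genes were at least 1.5-fold higher in Tlr4-/- (5.54%) and 175 at least 1.5-fold lower (1.92%). Of the 56 genes 1.5-fold lower at day 4, 4 were also 1.5-fold lower untreated, which is 7.14% of the day 4 list and 2.29% of the untreated list. Of the 137 higher genes 23 were also higher untreated, 16.8% and 4.56% of the lists. Cxcl1 (-0.01 untreated), Max (-0.01), Dnajc25 (-0.02) and Dbp (0.07) were level between the untreated pools. Bpifb1, Igfbp5, S100a9 and Scaf1 were lower, and Car4, Clec4n, Rbak and Atf5 higher, in Tlr4-/- in both. Across the 9097 genes the differences had a Pearson's r of 0.134 and a Spearman's rho of 0.143, a description across genes that share arrays and are not independent.

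**Figure D5:**
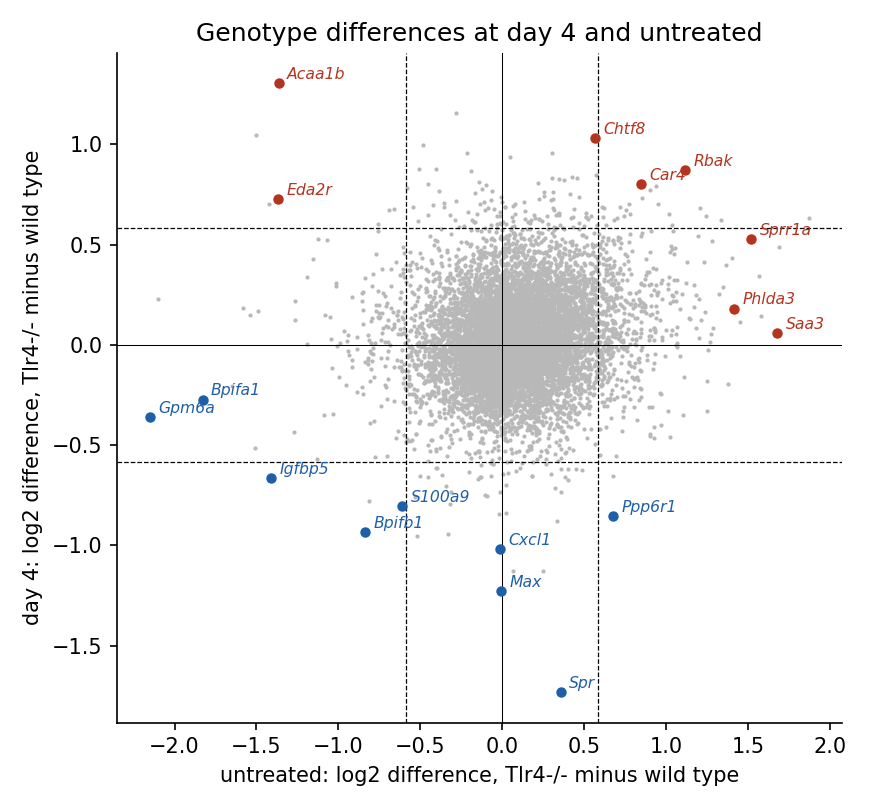
Log2 difference, Tlr4-/- minus wild type, at day 4 (vertical axis) against the same difference untreated (horizontal axis) for 9097 genes; dashed lines mark 1.5-fold. Cxcl1, Max and Spr lie past 1.5-fold at day 4 and within it untreated, Bpifb1 and Igfbp5 low in both, and Acaa1b and Eda2r change sides.

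A genotype effect across both treatments was tested on the 4 arrays, with 1 residual degree of freedom per gene. Limma called 0 of the 9097 genes (0%) at an adjusted p under 0.05, and its smallest Benjamini-Hochberg adjusted p was 0.153. There were 822 genes at an unadjusted limma p under 0.05, against 454.9 expected by chance. Centring on the median difference made that 696 and the smallest limma adjusted p 0.545. Genes share arrays and are not independent, so the excess is no count of genes that differ. Restricted to the 6065 brightest genes, limma called 16, of which 11 were higher and 5 lower in Tlr4-/-. These included Bcl3 (0.92, limma adjusted p = 0.0285), Car4 (0.82, adjusted p = 0.0246) and Atf5 (0.74, adjusted p = 0.0416) among the higher, and Igfbp5 and Bpifb1 (adjusted p = 0.0195 each) among the lower. The other lower genes were Bpifa1, Clec4d and Upk3b. All 5 are on marker lists of other cells, as is Car4. Untreated medians of the lists of the 5 were -0.81 (club), 0.16 (macrophage), -0.50 (fibroblast) and -1.17 (mesothelial). The part of such cells in these calls was not tested. The model counts a difference between the genotypes' responses to bleomycin as error, which weighs against a gene lower at day 4 alone. Cxcl1, such a gene, was among the 822 (limma unadjusted p = 0.0296), with a limma adjusted p of 0.48.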

How the data were processed

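Per the labels' protocols, RNA of flow-sorted AEC2 was extracted with Trizol, amplified and biotin labelled with commercial kits and hybridised to Affymetrix arrays. The authors deposited log2 signals, 1 per probe set and array; the log base was inferred here from their range, and no source used here names the software or the normalization between arrays. With 1 array per group, the number of arrays limits the precision of every value.

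Of 45101 probe sets, 34958 carried 1 gene symbol in the platform annotation, of which 34754 matched the RefSeq table of GRCm38.p6 by Entrez identifier. Another 932 carried several symbols and 9211 none (64 of them array controls), and these were left out of the gene results. Averaging probe sets per gene left 18194 genes. Genes with a mean above the median of all genes were kept. Differences are Tlr4-/- minus wild type.

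The genotype effect was fitted to all 4 arrays by limma (version 3.58.1, R 4.3.3; lmFit, eBayes, treatment as an additive factor, prior of 11.44 degrees of freedom). It was tried on 20 simulated data sets of 9097 genes with normal noise and no effect of treatment, in which 200 genes were changed. There it recovered 98.5% of genes changed 2-fold and 100% of those changed 4-fold. Of its calls 12.5% were unchanged genes, more than the adjusted p threshold of 0.05 allows for. These figures hold for that setting only. In the real fit over 9097 genes, Igfbp5 (-1.04) and Upk3b (-1.01) were not called. The share of unchanged genes among the 16 calls of the brightest genes was not simulated.

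Genes were named as follows: Tlr4, the 15 highest and 15 lowest (passing over predicted genes, receptor segments, Y-linked genes and Xist), up to 4 members of each of 45 lists past 1.5-fold or the furthest from 0, and a fixed set of AEC2, TLR4, hyaluronan, IL-6 and NF-kB genes. The members and lists were chosen with earlier results of these data known. Other list members in the text were picked once their values were known. Alternatives were other filters, the brightest probe set per gene, other scalings and log2 of the signal plus 64. Promoters (250 bases before and 50 after each RefSeq start) were searched on both strands for the NF-kB consensus, the CArG box, the E-box (CACGTG) and the cyclic AMP response element (TGACGTCA). The CArG box was in 1.63% and the last element in 1.79% of windows.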

Additional observations from a re-analysis of the deposited data

Results flagged for a closer look

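The genotype difference of 3 named genes had opposite directions in the 2 treatments, past 1.5-fold each way, and the change of direction was not tested since each difference rests on 2 arrays. Ppp6r1, a regulatory subunit of protein phosphatase 6, was at -0.86 at day 4 and 0.67 untreated. Acaa1b was at 1.30 at day 4 and -1.36 untreated. Eda2r was at 0.73 at day 4 and -1.37 untreated. Each of the 3 was read by 1 probe set.

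Probe sets without a gene name, which no gene result uses, also held large day 4 differences. Of 2418 such probe sets above the floor, 14 were at least 2-fold higher in Tlr4-/- (0.579%) and 6 at least 2-fold lower (0.248%), with a range from -1.85 to 1.82. Genes past the filter had shares of 0.044% and 0.055%, but most of those are averages over several probe sets.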

How the results depend on the processing

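Counts moved with the filter, the probe sets and the log scale. At day 4 the 137 genes at least 1.5-fold higher became 252 with no filter on dim genes, 74 among the upper part by signal, 208 with the brightest probe set per gene and 54 with log2 of the signal plus 64. The 56 lower genes became 110 with no filter, 104 with the brightest probe set and 30 with the signal plus 64. At 2-fold, the 4 higher became 18 (no filter), 2 (upper part), 11 (brightest probe set) and 0 (signal plus 64), and the 5 lower became 9 (no filter) and 2 (signal plus 64). Of the 137 and 56 genes, 95 and 41 were also past 1.5-fold with the brightest probe set. The share of higher genes among those past 1.5-fold lay between 64.3% and 73.3% (71.0% as reported). Alternatives for the untreated counts were chosen after seeing the data. The 504 higher became 761 (no filter), 324 (upper part), 331 (centred within bins of signal) and 261 (signal plus 64), and the 175 lower became 429, 73, 269 (centred on the median difference) and 82 (signal plus 64). Of 360 list medians under these alternatives, 357 lay within 0.23 (the spread between arrays) of the reported one. Those further off were the CXC chemokines at -0.10 with no filter and the endothelial list at 0.0900 with no filter and -0.0885 with the brightest probe set. That tolerance is wide for a list, and 19 medians of 11 of the 45 lists changed sign, 4 of them in Toll-like receptor signalling, 3 in NRF2 and glutathione and 2 each in MHC class II, sterol synthesis and lymphocyte genes. Other medians kept their sign but moved by over 1.5 times, among them ciliated genes (0.01 with no filter) and mesothelial genes (-0.09 in the upper part). Of 670 values of 134 named genes, 651 lay within 0.23 of the reported one and 19 did not. Values of 7 named genes changed sign or became 0, with 0 of the 7 past 1.5-fold. They were Tlr4 (0.41), Ikbkg (0.04), Rps20 (0.04), Sftpc and Sftpa1 with the brightest probe set, and Sftpb (which became 0) and Cdkn1a with quantile normalization. The limma calls went from 0 to 16 in the upper part by signal. They were 0 with no filter, the brightest probe set, quantile normalization, centring on the median difference, the signal plus 64, and trend and robust priors, and limma was not run with the filter on the day 4 arrays or centring within bins of signal. Fewer genes tested and a smaller signal range are part of some alternatives, and otherwise the cause was not tested. No paired analysis was possible because each group had 1 array. Without detection calls, how far dim genes stand above background is unknown.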

Other observations

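Genes next to Tlr4 on chromosome 4 showed no common direction. Of the 30 nearest RefSeq genes on the array, 10 passed the filter, with day 4 differences from -0.42 to 0.70. Dmac1, a complex I assembly gene, was the 1 past 1.5-fold, at 0.70 at day 4 and -0.42 untreated. Tle1, a transcriptional corepressor, was at -0.42 and Megf9 at -0.40 at day 4. By chromosome, the share of genes past 1.5-fold at day 4 ran from 0.446% on chromosome 18 to 3.04% on chromosome 7, and was 2.53% on chromosome 4 and 1.64% on X.

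Of the dim genes with known roles in this setting, Tnf read 6.89, 7.20, 7.33 and 6.57 in the order used above, and the p53 target Pmaip1, which promotes cell death, read 3.95, 4.52, 5.26 and 6.29. Both lie under the floor on average, so their sizes are uncertain. Lyve1, a hyaluronan receptor of lymphatic endothelium and some macrophages, read 6.04, 5.70, 5.71 and 6.51.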
